A study of Mus musculus with 9 samples.

Results

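Nuclear transport genes were examined in RNA-Seq counts of MyC-CaP cells treated with ASPN. They comprised 56 of the 15384 genes in the count table. The genes were chosen by symbol, and the pattern took the importins and transportins (Kpna, Kpnb1, Ipo, Tnpo), the exportins (Xpo, Cse1l), Ran, Rangap1 and the Ranbp genes, and the nuclear pore genes Nup, Nupl and Tpr. The pattern itself used no count, but it was drawn up with results of these same libraries known, so the counts over the group are a description. Ranbp9 and Ranbp10 matched by name alone and are known as subunits of the CTLH ubiquitin ligase.

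MyC-CaP is a mouse prostate cancer line from a tumor of a Hi-Myc transgenic mouse, whose prostate epithelium expresses MYC, and ASPN (asporin) is a protein secreted by fibroblasts of the tumor stroma. All 9 libraries came from this line after a period without serum and calcium. There were 3 biological replicates each at time 0, 12 hours and 24 hours of recombinant mouse ASPN at 100 ng/mL. By their labels the time 0 libraries are ASPN-treated as well, and no buffer library at 12 or 24 hours was among the 9, so ASPN and the hours in culture cannot be told apart. The replicates were wells plated in triplicate from 1 cell line, and p-values measured the spread between such wells.

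Library totals ran from 41881191 to 52993821 counts. Levels are given as CPM (counts relative to the library total, scaled with TMM factors over the 9 libraries), and a floor of 3 counts was 0.0550 to 0.0735 CPM on this scale. Among markers of the labelled epithelial cell type, Hoxb13 (mean 71.8 CPM at time 0 and 96.6 CPM at 24 hours) and Krt8 (25.4 and 38.1 CPM) were well above the floor and were highest at 24 hours, and their part in the 24 hour results was not tested. Epcam was at or under the floor in all 9 libraries, and Cdh1 and Krt18 did not exceed 0.211 and 0.490 CPM. Summed fibroblast markers were at 12.9 to 14.1 CPM at time 0, 12.2 to 12.5 CPM at 12 hours and 9.12 to 10.3 CPM at 24 hours. Nearly all of this was Pdgfra (13.2 CPM on average at time 0 and 9.27 CPM at 24 hours), while Col1a1, Dcn and Pdgfrb did not exceed 0.601 CPM, and its part in the 24 hour results was not tested. Leukocyte markers were at 0.27 to 0.793 CPM and endothelial markers at 0.0415 to 0.183 CPM.

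Nuclear pores are built of many copies of nucleoporins arranged as outer, inner and membrane rings around a central channel, with filaments on the cytoplasmic side and a basket on the nuclear side. Importin beta type receptors carry cargo through the channel either directly or, for classical nuclear localization signals, through an importin alpha adaptor, and release it when they bind Ran loaded with GTP. Exportins leave the nucleus with Ran and cargo, and Cse1l is the exportin that returns importin alpha to the cytoplasm.

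The promoter windows of 4 genes that passed the test at 24 hours, Kpna2 and Ranbp6 (lower) and Kpna4 and Ipo7 (higher), are shown first, because they stand for both directions of change. They are RefSeq promoter windows of GRCm38.p6, printed 5′ to 3′ on the strand of the gene, from 250 bases before the start site up to the first base of the annotated gene. Capitals mark matches to any of 5 motifs searched on both strands, namely CACGTG (an E-box), the string CCAAT, the E2F-like strings TTCGCGC and its variant TTGGCGC counted as 1 motif, the string GCATGCG, and the TATA box string TATAAA. The windows are chr11:106999542-106999775 (minus strand) for Kpna2, chr19:29812975-29813224 (minus strand) for Ranbp6, chr3:69127114-69127342 (minus strand) for Kpna4 and chr7:110018065-110018273 (plus strand) for Ipo7.
Kpna2: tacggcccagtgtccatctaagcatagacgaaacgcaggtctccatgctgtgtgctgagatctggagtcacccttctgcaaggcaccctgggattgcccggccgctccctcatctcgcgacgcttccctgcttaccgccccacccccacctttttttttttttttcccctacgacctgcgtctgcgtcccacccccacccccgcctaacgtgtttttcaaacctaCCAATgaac
Ranbp6: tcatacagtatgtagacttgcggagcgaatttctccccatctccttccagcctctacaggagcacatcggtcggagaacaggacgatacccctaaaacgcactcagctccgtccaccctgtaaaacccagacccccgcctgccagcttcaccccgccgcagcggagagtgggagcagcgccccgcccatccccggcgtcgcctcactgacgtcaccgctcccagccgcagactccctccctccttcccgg
Kpna4: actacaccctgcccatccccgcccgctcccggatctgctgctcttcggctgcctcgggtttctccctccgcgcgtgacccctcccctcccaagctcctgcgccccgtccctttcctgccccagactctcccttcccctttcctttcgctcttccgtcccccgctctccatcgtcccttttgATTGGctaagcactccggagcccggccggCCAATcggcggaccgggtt
Ipo7: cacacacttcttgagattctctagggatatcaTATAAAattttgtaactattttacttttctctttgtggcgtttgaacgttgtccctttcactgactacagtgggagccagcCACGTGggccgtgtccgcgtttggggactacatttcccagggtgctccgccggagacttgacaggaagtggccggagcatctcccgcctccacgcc
Both importin alpha windows held CCAAT, once in Kpna2 and in 2 places in Kpna4, counting its reverse complement. Ipo7 held CACGTG and TATAAA, and a TTGGCGC match that lies in the 41 bases left out here because they belong to the annotated gene. Ranbp6 held none of these strings. A window was found for 43 of the 56 genes, and CACGTG was present in 8 of these (18.6%) against 6.04% of the 27025 genes with a window. GCATGCG was present in 6 (14%, against 3.06%), CCAAT in 19 (44.2%, against 34.5%) and TATAAA in 3 (6.98%, against 13%). The E2F-like strings were present in 1 (2.33%, against 3.27%). The genes with CACGTG were Ipo7, Nup54, Nup93, Nup188, Ran, Ranbp2, Tnpo2 and Xpot. The 27025 genes were neither limited to expressed genes nor matched for GC content, so the differences in share cannot be assigned to the transport role. CCAAT read on the opposite strand can share bases with TTGGCGC, and a match in a window describes the sequence only.

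After 12 hours with ASPN, none of the 54 nuclear transport genes that were tested was called changed. To be called, a gene needed at least a 1.5-fold difference and, in edgeR's quasi-likelihood test, a p of at most 0.05 after Benjamini-Hochberg adjustment. Ranbp3l and Nupl1 were removed by the filter on low counts. Over all 11410 genes tested, 1.5% were called higher and 0.0964% lower. With the adjusted p alone, 2 transport genes (3.7%) were higher and 0 lower, against 6.85% and 3.47% of all genes. The median log2 fold change of the transport genes was -0.003, and that of all genes was -0.005.

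Both of these genes belong to the nuclear basket. Nup153, a basket protein that anchors other nucleoporins, was at 73, 73.6 and 73.9 CPM at time 0 and at 85, 82.8 and 82.9 CPM at 12 hours, without overlap (log2 fold change 0.19 ± 0.03 SE, adjusted p = 0.000799). At 24 hours it was at 79.7, 75.9 and 74.9 CPM, between the levels of the earlier times. Nup50, which helps to take importin alpha apart from its cargo, was at 146.5, 140.2 and 139.1 CPM at time 0 and 150.5, 152.7 and 160.6 CPM at 12 hours (log2 fold change 0.13 ± 0.04, adjusted p = 0.0296). Its 12 hour value lost the adjusted p under some of the alternatives, with p from 0.00327 to 0.179. Tpr, the large coiled-coil protein of the basket, had equal means of 283 CPM at time 0 and 12 hours.

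After 24 hours, 5 of the 55 tested transport genes were called higher (9.09%) and 3 lower (5.45%), where 12% and 16.8% of all 11444 tested genes were called. Kpna3, Kpna4, Ipo7, Nup43 and Nup54 rose, and Kpna2, Ranbp6 and Nup155 fell. With the adjusted p alone, 22 were higher (40%) and 19 lower (34.5%), against 34.4% and 36.5% of all genes. Most of these differences were therefore under 1.5-fold, in both directions. In bulk libraries, a changed share of cells with a transcript and a changed amount per cell cannot be told apart. The median log2 fold change was 0.05 for the transport genes and -0.02 for all genes. The 3 libraries of 24 hours lay entirely above those of time 0 for 23 genes and entirely below them for 19, and overlapped them for 13. Overlap was not counted over all genes, so these counts show no trait particular to the transport genes.

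Between 12 and 24 hours, 6 of 54 were called higher (11.1%) and 3 lower (5.56%), where 10.4% and 15.3% of all genes were called. These were the 8 genes of the comparison with time 0 and Tnpo2. Nup155 lost this call with offsets for transcript length and GC content (-0.575), Nup54 with these offsets (0.50) and in a single fit of all 9 libraries (0.58), and Tnpo2, Nup54, Kpna3, Kpna4 and Ipo7 under total-count scaling (0.376 to 0.575). Without 24 h replicate 1, Tnpo2 (0.57) and Nup54 (0.56) were not called. The adjusted p alone gave 23 higher (42.6%) and 18 lower (33.3%), against 35.7% and 35.6% of all genes. The 24 hour libraries are shared by both of these comparisons, and the time 0 libraries by the comparisons at 12 and 24 hours, so their values are not independent.

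**Figure D1:**
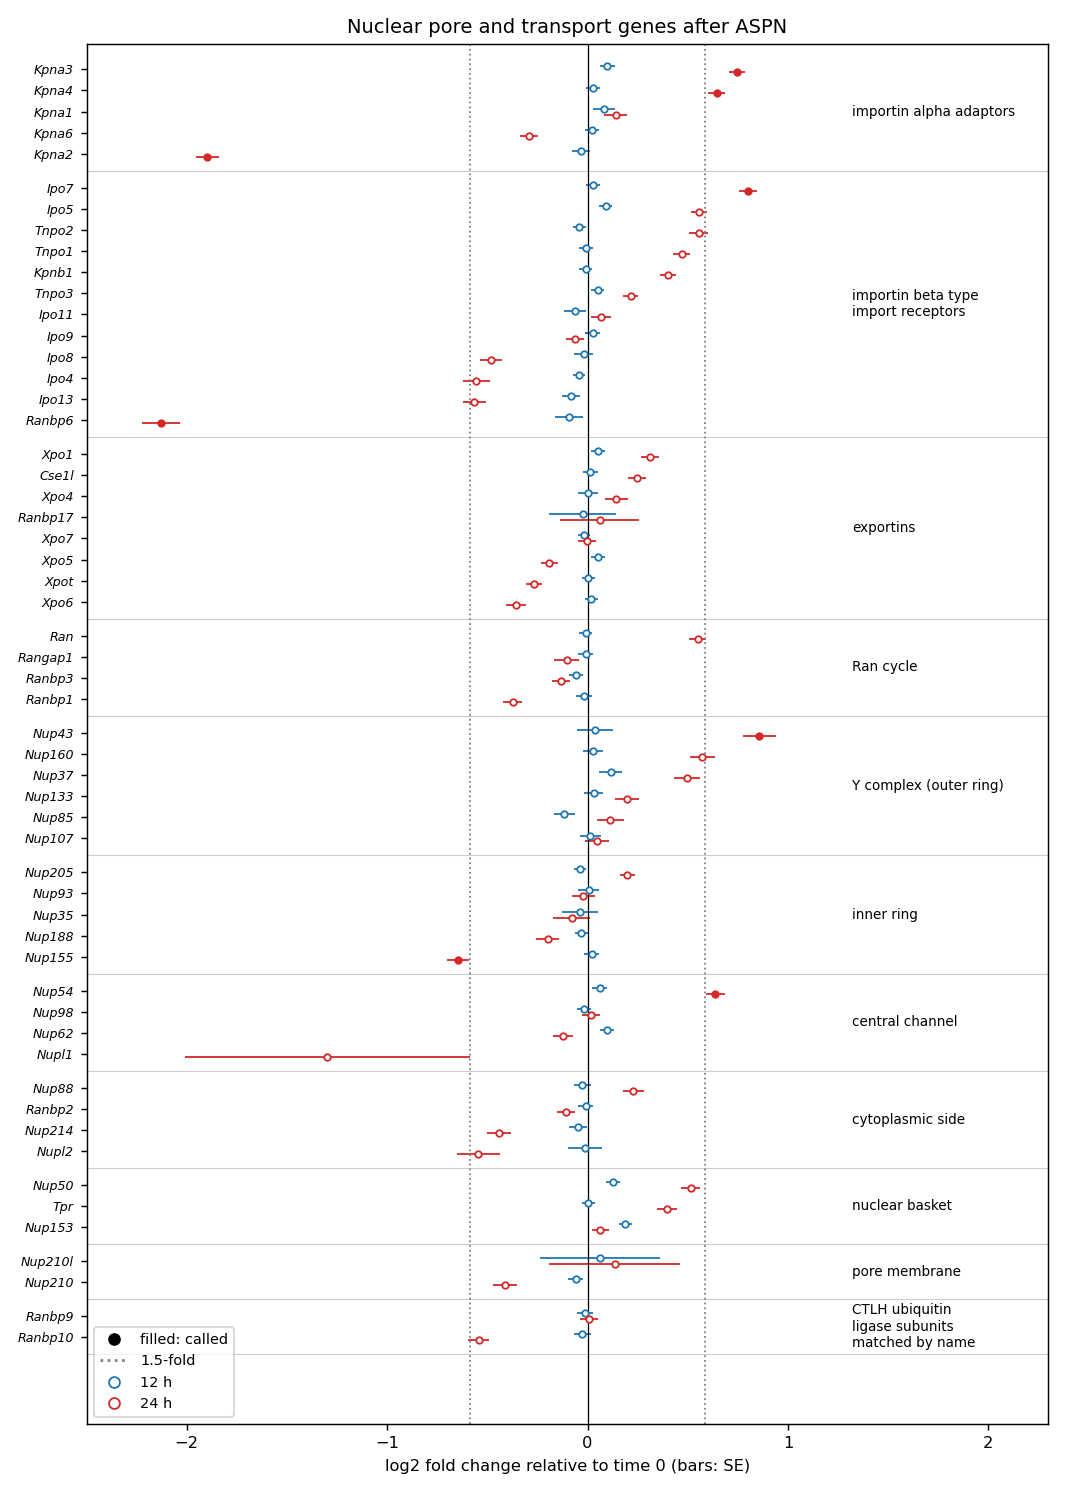
Log2 fold change relative to time 0 (x axis, bars are SE) of the 55 transport genes tested at 24 hours, grouped by role, at 12 hours (blue) and 24 hours (red). Filled points passed the test at 1.5-fold or more (dotted lines), which 8 genes did at 24 hours and none did at 12 hours.

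The importin alpha adaptors changed in opposite directions at 24 hours. Kpna3 and Kpna4, adaptors known for carrying NF-κB subunits among other cargo, rose, while Kpna2, an adaptor known to be abundant in dividing cells, fell. Of the 5 adaptors in the table, 2 were called higher and 1 lower at 24 hours, where 12% and 16.8% of all genes were called, and 0 were called at 12 hours.

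Kpna2 (chr11:106988629-106999541, minus strand, GRCm38) was at 106.5, 115.9 and 123.3 CPM at time 0, at 116.6, 112.3 and 108.6 CPM at 12 hours and at 30.4, 31.6 and 30.8 CPM at 24 hours. Every 24 hour library was far below the 6 earlier ones, which overlapped each other. Its log2 fold change was -0.03 ± 0.04 at 12 hours (adjusted p = 0.755) and -1.90 ± 0.06 at 24 hours (adjusted p = 2.35e-11). Across all alternatives it was called, with values from -2.12 to -1.83. A limit lies in the counting, since 88.2% of the 100-base stretches of its exons also occur in other annotated genes, among them Gm10184 and the processed pseudogene Gm10259, and how the authors treated reads with several matches is not given in the sources used here.

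Kpna3 (chr14:61365211-61439874, minus strand) was at 63.2, 61.6 and 63.7 CPM at time 0, at 66.3, 66.1 and 69 CPM at 12 hours and at 105, 105.8 and 105.7 CPM at 24 hours. The 24 hour libraries were higher than all others and nearly equal (log2 fold change 0.75 ± 0.04, adjusted p = 2.77e-09). Kpna4 (chr3:69067149-69127113, minus strand) was at 87.6, 83.7 and 88.8 CPM at time 0, 87.3, 89 and 88.2 CPM at 12 hours and 135.2, 134.9 and 136.4 CPM at 24 hours. It showed the same pattern at a smaller size (log2 fold change 0.64 ± 0.04, adjusted p = 1.22e-08).

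The pair Kpna1 and Kpna6, which are close relatives of each other, was not called. Kpna1 was at 31.3, 30.4 and 31.2 CPM at time 0, 33, 35.1 and 29.9 CPM at 12 hours and 36.4, 31.9 and 34.1 CPM at 24 hours, and its 24 hour value of 0.14 ± 0.06 (adjusted p = 0.0478) became -0.08 when libraries were scaled by total counts. Kpna6 was at 70.2, 72.4 and 74.3 CPM at time 0, 74.5, 71.1 and 74.3 CPM at 12 hours and 56.8, 59.6 and 60.8 CPM at 24 hours. Its 24 hour libraries were all lower, by less than 1.5-fold (log2 fold change -0.29 ± 0.05, adjusted p = 7.11e-05), and the difference was lost with offsets for transcript length and GC content (-0.05, adjusted p = 0.403).

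Because these adaptors share one role, their levels were also compared per kilobase of annotated exon. Kpna2 made up 50.8% ± 1.64 (SD, n = 3) of the summed importin alpha level at time 0, 49.3% ± 0.997 at 12 hours and 17% ± 0.314 at 24 hours. The share of Kpna3 was 18.6% ± 0.762, 19.7% ± 0.736 and 38.8% ± 0.122 at the same times, and that of Kpna4 was 12.3% ± 0.547, 12.4% ± 0.293 and 24% ± 0.117. Thus Kpna2 held the largest share at time 0 and 12 hours and Kpna3 at 24 hours, with no overlap between the 24 hour libraries and the others for these 3 genes. Kpna6 held 13.6% ± 0.202, 13.7% ± 0.376 and 13.9% ± 0.396, and Kpna1 held 4.64% ± 0.207, 4.84% ± 0.368 and 6.36% ± 0.45. The summed level was 78.8 ± 3.38 CPM per kilobase at time 0, 79.4 ± 1.24 at 12 hours and 63.3 ± 0.381 at 24 hours. Without division by length, the sum of the 5 genes was 368 ± 11.9, 374 ± 3.82 and 365 ± 2.28 CPM. Under TMM factors the fall of the sum was thus seen only per kilobase, where the short Kpna2 exons take more weight. Both sums rest on the TMM factors, which are lower at 24 hours, and the sum under total-count scaling is not given here. Shares carry the counting limit of Kpna2 given above.

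**Figure D2:**
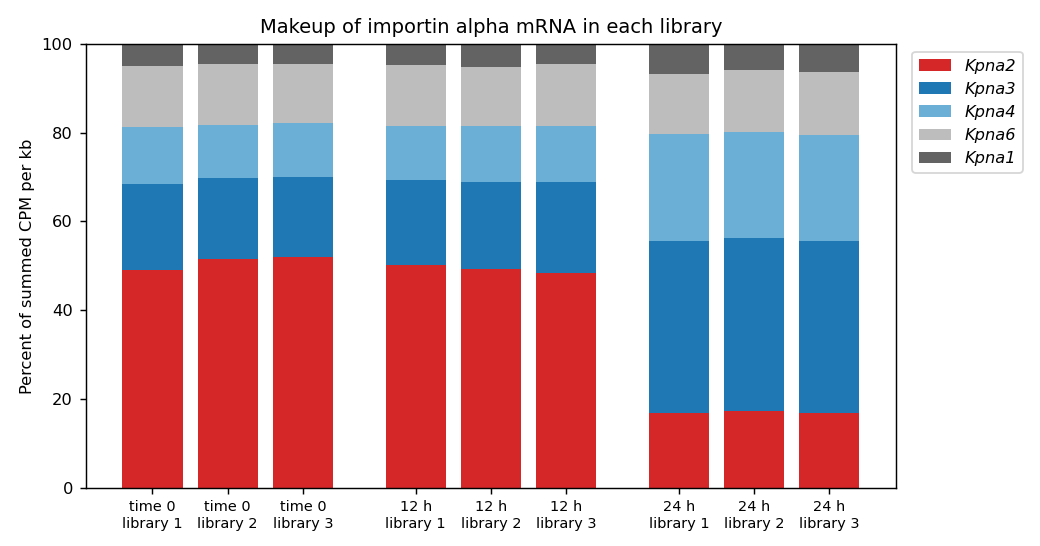
Share of each importin alpha gene in the summed importin alpha level (y axis, percent of CPM per kilobase of exon) in each of the 9 libraries (bars). Kpna2 takes 49.0% to 52.1% at time 0 and 16.8% to 17.4% at 24 hours, while Kpna3 and Kpna4 widen at 24 hours.

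The importin beta type receptors had the highest summed level of any role, 2137 ± 37.1 CPM at time 0, 2153 ± 12.5 CPM at 12 hours and 2911 ± 37.4 CPM at 24 hours, and the 24 hour libraries were above all others. Among the 12 genes, Ipo7 rose and Ranbp6 fell at 24 hours, and 6 were higher and 4 lower by the adjusted p alone, where 34.4% and 36.5% of all genes were. Ipo5, Kpnb1, Tnpo1, Tnpo2 and Tnpo3 were the other 5 that were higher, and for Tnpo3 the sign turned under total-count scaling (from 0.21 to -0.007).

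Ipo7 (chr7:110018274-110056609, plus strand), a receptor known for importing ribosomal proteins and, together with Kpnb1, linker histone, was at 464.7, 428.9 and 441.4 CPM at time 0, 454.4, 454.7 and 446.3 CPM at 12 hours and 806, 750.2 and 770.1 CPM at 24 hours. The 24 hour libraries did not overlap the others (log2 fold change 0.80 ± 0.05, adjusted p = 4.13e-09). Its closest relative Ipo8 was at 32.9, 31.8 and 34.1 CPM at time 0, 32.8, 33.1 and 31.3 CPM at 12 hours and 24.2, 22.8 and 23.6 CPM at 24 hours. Ipo8 was lower at 24 hours but did not reach 1.5-fold (log2 fold change -0.48 ± 0.06, adjusted p = 4.3e-06). The log2 ratio of Ipo7 to Ipo8 CPM was 3.76 ± 0.06 at time 0, 3.80 ± 0.03 at 12 hours and 5.04 ± 0.01 at 24 hours (SD, n = 3).

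Ranbp6 (chr19:29808400-29812974, minus strand) encodes an importin beta family protein closest to Ipo5. It was at 15.3, 15.9 and 16.5 CPM at time 0, 15.3, 15.5 and 13.9 CPM at 12 hours and 3.85, 3.75 and 3.32 CPM at 24 hours. This was the lowest log2 fold change of all transport genes at 24 hours (-2.13 ± 0.10, adjusted p = 6.72e-10), and it ranged from -2.35 to -2.06 over the alternatives. Ipo5, a receptor for ribosomal proteins and core histones, was on average at 350 ± 10.8, 372 ± 6.67 and 515 ± 4.64 CPM and stayed just under 1.5-fold at 24 hours (log2 fold change 0.56 ± 0.04, adjusted p = 3.96e-08), and it was called with length and GC offsets (0.62). The log2 ratio of Ipo5 to Ranbp6 was 4.46 ± 0.10 at time 0, 4.65 ± 0.08 at 12 hours and 7.15 ± 0.11 at 24 hours.

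Kpnb1, importin beta itself and the partner of importin alpha, was at 556, 542 and 568 CPM at time 0, 551, 547 and 553 CPM at 12 hours and 721, 753 and 729 CPM at 24 hours. It was higher at 24 hours without overlap and under 1.5-fold (log2 fold change 0.40 ± 0.04, adjusted p = 9.62e-07), but was called with length and GC offsets against time 0 (0.61) and 12 hours (0.65). Tnpo1, transportin, which imports many RNA-binding proteins, was at 176, 167.8 and 167.2 CPM at time 0, 164.8, 172.7 and 169.4 CPM at 12 hours and 246.2, 228.9 and 232.1 CPM at 24 hours (log2 fold change 0.47 ± 0.04, adjusted p = 4.35e-07). Its relative Tnpo2 was at 160.3, 165.1 and 154.3 CPM at time 0, 154.6, 158.2 and 152.4 CPM at 12 hours and 248.7, 225.9 and 230.3 CPM at 24 hours. Tnpo2 did not reach 1.5-fold against time 0 (0.56 ± 0.05, adjusted p = 1.79e-07) and did against 12 hours (0.62 ± 0.04, adjusted p = 2.36e-08). The log2 ratio of Tnpo2 to Tnpo1 was -0.09 ± 0.06, -0.12 ± 0.03 and -0.005 ± 0.02 at the 3 times. With length and GC offsets the log2 fold change at 24 hours was 0.82 for Tnpo2 and 0.52 for Tnpo1.

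Of the remaining receptors, Ipo13 (-0.57 ± 0.06, adjusted p = 1.07e-06) and Ipo4 (-0.56 ± 0.07, adjusted p = 5.73e-06) were lower at 24 hours and just under 1.5-fold, and with length and GC offsets both were at -0.33. Ipo4 shares 55.3% of its exon bases with the overlapping gene model Gm49378, so its count is uncertain. Ipo9 and Ipo11 had values of -0.06 and 0.07 that did not pass the adjusted p.

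**Figure D3:**
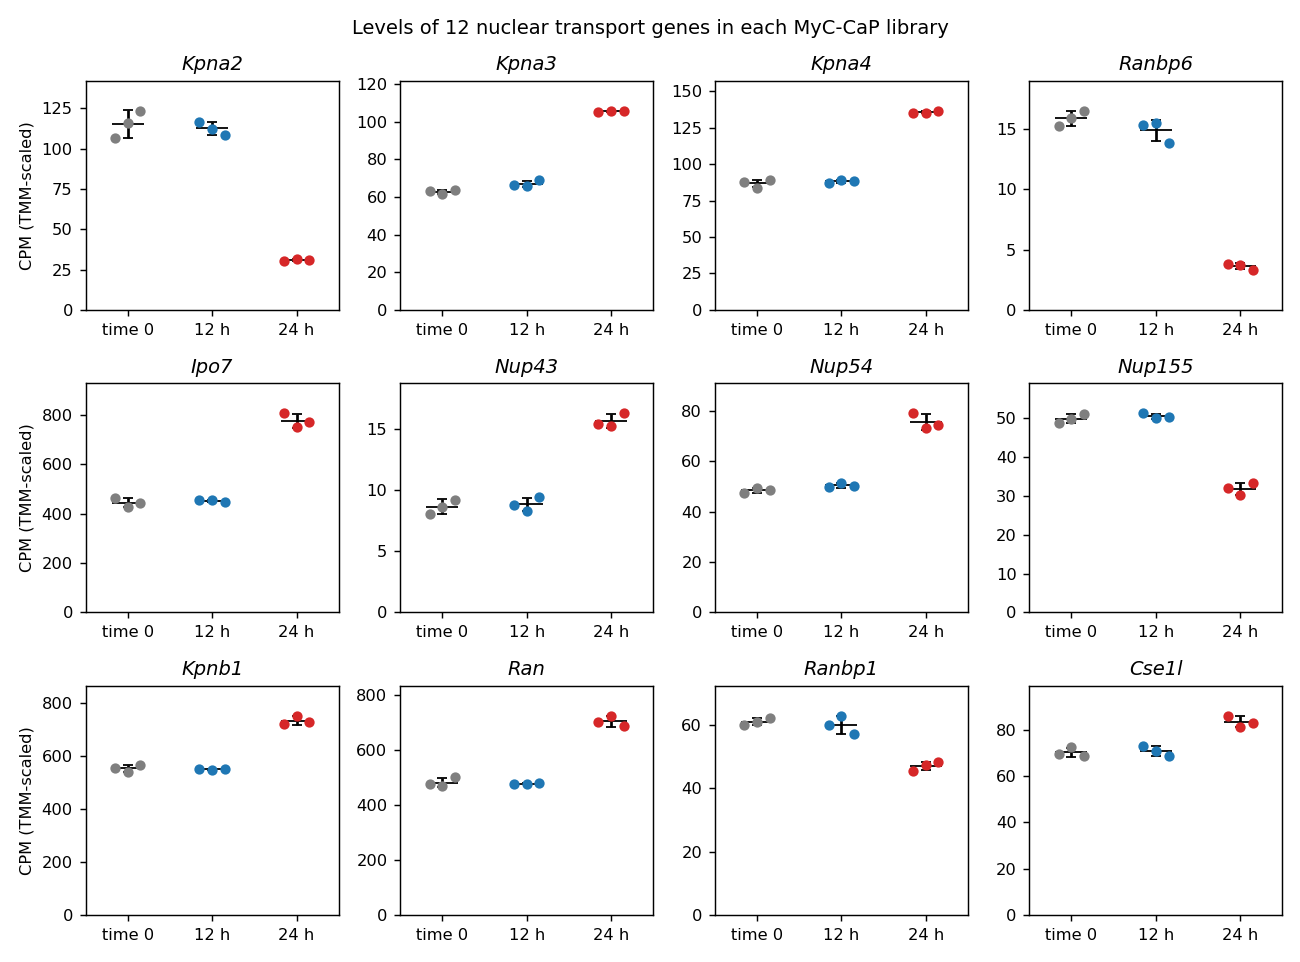
CPM (y axis, TMM-scaled, from 0) of 12 transport genes at time 0, 12 hours and 24 hours. Points are the 3 libraries of each time and bars are mean ± SD. In each panel the time 0 and 12 hour libraries lie close together, and in all 12 panels the 24 hour libraries lie apart from those of time 0. The panels are the genes called at 24 hours and Kpnb1, Ran, Ranbp1 and Cse1l, so this separation follows in part from their choice. Rangap1, which is not plotted, overlapped between time 0 and 24 hours.

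None of the 8 exportins was called at 24 hours, where 12% of all genes were called higher and 16.8% lower. Their summed level was 658 ± 4.39, 666 ± 2.3 and 654 ± 3.87 CPM at the 3 times, values that rest on the TMM factors. By the adjusted p alone 3 were higher and 3 lower, where 34.4% and 36.5% of all genes were. Xpo1, the exporter of proteins with leucine-rich export signals, was at 133.9, 140.3 and 144.2 CPM at time 0, 142, 143.7 and 147.4 CPM at 12 hours and 177.6, 166 and 176.6 CPM at 24 hours. It was higher at 24 hours in every library (log2 fold change 0.31 ± 0.04, adjusted p = 2.71e-05). Cse1l, which recycles importin alpha, was at 69.5, 72.3 and 68.8 CPM at time 0, 72.9, 70.8 and 68.5 CPM at 12 hours and 86, 81.3 and 82.9 CPM at 24 hours (0.25 ± 0.04, adjusted p = 0.00019). Under total-count scaling Xpo1 was at 0.09 and Cse1l at 0.03, and neither passed the adjusted p. The log2 ratio of Kpna2 to Cse1l was 0.71 ± 0.12, 0.67 ± 0.007 and -1.43 ± 0.07 at the 3 times. On the lower side were Xpo6, the actin exporter (-0.36), Xpot, the tRNA exporter (-0.27), and Xpo5, the exporter of microRNA precursors (-0.19). With offsets for transcript length and GC content these became -0.11, -0.10 and 0.04. Xpo4 was at 0.14 (-0.08 under total-count scaling), and Xpo7 and the little expressed Ranbp17 (1.78 CPM at time 0) did not pass the adjusted p, with values of -0.002 and 0.06.

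In the Ran cycle, Ran itself was higher at 24 hours while Ranbp1 was lower, and neither was called. Ran, the GTPase that sets the direction of transport, was at 477, 469 and 501 CPM at time 0, 477, 477 and 480 CPM at 12 hours and 703, 725 and 687 CPM at 24 hours. The 24 hour libraries were clear of all others, and the fold change stopped just short of 1.5 (log2 fold change 0.55 ± 0.04, adjusted p = 8.32e-08). Ranbp1, which helps Rangap1 to trigger GTP hydrolysis on Ran, was at 59.9, 60.9 and 62 CPM at time 0, 60.1, 62.9 and 57.2 CPM at 12 hours and 45.5, 47.4 and 48.2 CPM at 24 hours (-0.37 ± 0.05, adjusted p = 6.71e-06), and it was at -0.57 with length and GC offsets and called at -0.60 under total-count scaling. Rangap1, the GTPase activator, was at 102.8, 103.5 and 111.5 CPM at time 0, 105.9, 101.8 and 107.3 CPM at 12 hours and 90.5, 109.5 and 95.4 CPM at 24 hours. Its groups overlapped (-0.10 ± 0.06, adjusted p = 0.158). The log2 ratio of Ran to Ranbp1 was 2.98 ± 0.04, 2.99 ± 0.07 and 3.91 ± 0.06 at the 3 times. Of the 100-base stretches, 10.9% of Ran and 18.7% of Ranbp1 also occur in other annotated genes. Ranbp3, a cofactor of Xpo1, was at -0.13 ± 0.04 (adjusted p = 0.0181), which turned to 0.03 with length and GC offsets. Ranbp3l had 0 to 2 counts in each library and was not tested.

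Per kilobase of exon, Ran had the highest level of all transport genes at every time, with 182 ± 6.28 CPM per kilobase at time 0, 181 ± 0.585 at 12 hours and 267 ± 7.27 at 24 hours. Kpnb1 was the next at 84.3 ± 1.94 and Ipo5 the third at 58.4 ± 1.80 at time 0. Kpna2 followed at 40.1 ± 2.92 and Ipo7 at 39.8 ± 1.63, which did not differ beyond their spread. At 24 hours Ipo7 stood at 69.4 ± 2.53, in place 4, and Kpna2 at 10.8 ± 0.22, in place 27 of 56.

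Among the nucleoporins, Nup43 and Nup54 rose and Nup155 fell at 24 hours. Of the 6 genes of the Y complex, the outer ring scaffold, that the symbols matched, 1 was called higher, 4 were higher by the adjusted p alone and none was lower. Over all genes 12% were called higher, and by the adjusted p alone 34.4% were higher and 36.5% lower. The symbols did not match Sec13 (0.30 ± 0.06), Seh1l (0.33 ± 0.04) and Ahctf1 (-0.46 ± 0.04, adjusted p = 4e-07, and -0.34 with length and GC offsets) of the same complex, which are named here after their values were seen. Nup43 (chr10:7667503-7678881, plus strand), a small outer ring subunit, was at 8.01, 8.64 and 9.21 CPM at time 0, 8.77, 8.32 and 9.39 CPM at 12 hours and 15.4, 15.2 and 16.2 CPM at 24 hours. Under TMM factors this was the highest log2 fold change of the transport genes (0.86 ± 0.08, adjusted p = 7.81e-07), whereas Tnpo2 was the highest with length and GC offsets (0.82), and Nup43 was called under every alternative. Nup160 (0.57 ± 0.06, adjusted p = 1.98e-06) was just under 1.5-fold and was called under 9 of 16 alternatives, and Nup37 was at 0.50 ± 0.06, or 0.17 with these offsets. Nup133 was at 0.20 ± 0.06 (adjusted p = 0.00911), which turned to -0.03 under total-count scaling and was 0.43 with the offsets. The scaffold subunits Nup107 and Nup85 did not pass the adjusted p, with values of 0.05 and 0.11. The summed level of the 6 matched genes was 172 ± 8.84, 170 ± 0.549 and 210 ± 3.13 CPM.

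In the inner ring, Nup155 (chr15:8109273-8161247, plus strand), which connects the ring with the pore membrane, was at 48.7, 49.8 and 51 CPM at time 0, 51.2, 50 and 50.2 CPM at 12 hours and 31.9, 30.3 and 33.4 CPM at 24 hours. All 24 hour libraries were below the others (log2 fold change -0.65 ± 0.05, adjusted p = 1.37e-07). Its partners in the ring did not share this value: Nup205 was at 0.20 ± 0.04, Nup188 at -0.20 ± 0.06, and Nup93 at -0.02 ± 0.06, and the sign of Nup205 turned under total-count scaling (-0.02) and that of Nup188 with length and GC offsets (0.13), with which Nup205 was at 0.43. Nup35 was at -0.08 ± 0.09 under TMM factors. It was lower with the offsets (-0.32, adjusted p = 0.00567) and under total-count scaling (-0.30, adjusted p = 0.0102). Of its 100-base stretches, 72.2% also occur in Gm4353.

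In the central channel, Nup54 (chr5:92415540-92435219, minus strand), an FG-repeat protein that forms a complex with Nup62, was at 47.4, 49.4 and 48.6 CPM at time 0, 49.6, 51.5 and 50.2 CPM at 12 hours and 79, 73.1 and 74.3 CPM at 24 hours. The 24 hour libraries were above all others (log2 fold change 0.64 ± 0.05, adjusted p = 4.86e-08). With length and GC offsets its value was 0.54, below 1.5-fold. Nup62 was at -0.12 ± 0.05 (adjusted p = 0.0417), which turned to 0.04 with these offsets, and Nup98 was at 0.02 ± 0.04. The third protein of the Nup62 complex is listed under its older symbol Nupl1, at 2 to 25 counts per library (-1.30 ± 0.71, adjusted p = 0.12). In the annotation, 55.4% of the exon bases of that gene model overlap other genes, so these counts say little about it.

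On the cytoplasmic side, Nup214 (-0.44 ± 0.06) and Nupl2 (-0.55 ± 0.11), which take part in mRNA export, and Ranbp2 (-0.11 ± 0.04), the filament protein, were lower by the adjusted p alone, and Nup88 was higher (0.23 ± 0.05). With length and GC offsets Nup214 was at -0.10 and Ranbp2 at -0.06, and neither passed the adjusted p, and under total-count scaling Nup88 was at 0.005. In the nuclear basket, Nup50 (0.51 ± 0.05, adjusted p = 3.22e-07) and Tpr (0.40 ± 0.05, adjusted p = 6.31e-06) were higher at 24 hours without being called. With length and GC offsets Nup50 was called against time 0 (0.69) and 12 hours (0.60) and Tpr was at 0.52, whereas under total-count scaling they were at 0.29 and 0.18. The summed level of the 3 basket genes was 498 ± 9.67, 521 ± 6.67 and 651 ± 14.9 CPM. Nup210 of the pore membrane was lower (-0.41 ± 0.06, adjusted p = 3.5e-05), a difference that was lost with length and GC offsets (-0.055, adjusted p = 0.395). Nup210l was at 0.394 to 0.676 CPM.

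Ranbp9 and Ranbp10, the CTLH subunits, differed from each other. Ranbp9 was at 47.3, 47.5 and 46.4 CPM at time 0, 47.7, 45.4 and 46.4 CPM at 12 hours and 48.4, 46.8 and 46.8 CPM at 24 hours (0.008 ± 0.05, adjusted p = 0.89). Ranbp10 was at 53.6, 48.4 and 50.8 CPM at time 0, 50.6, 49.6 and 49.4 CPM at 12 hours and 34.3, 35.5 and 34.9 CPM at 24 hours. All its 24 hour libraries were lower, short of 1.5-fold (-0.54 ± 0.05, adjusted p = 6.89e-07), and the value was -0.26 with length and GC offsets.

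A list of 19 other transport genes that the symbols did not match, such as Sec13, Rcc1 and the mRNA exporter Nxf1, had 18 in the table. None was called at 12 hours. At 24 hours 2 were called lower and 0 higher, where 16.8% and 12% of all genes were called, and the median over the list was 0.12 on the log2 scale. The 2 were Pom121, a pore membrane protein (-0.78 ± 0.05, adjusted p = 3.21e-08), and Snupn, the import adaptor of spliceosomal snRNPs (-0.63 ± 0.08, adjusted p = 9.22e-06). Between 12 and 24 hours, Pom121 was called lower (-0.77 ± 0.05) and Ddx19a, an mRNA export helicase, higher (0.64 ± 0.04). With length and GC offsets Pom121 was at -0.43 against time 0 and -0.42 against 12 hours, below 1.5-fold, and under total-count scaling Ddx19a was at 0.41. Of 7 nuclear lamina genes, 2 were called higher at 24 hours, Emd (1.00 ± 0.04, adjusted p = 3.15e-10) and Tmpo (0.67 ± 0.04, adjusted p = 1.44e-08), and the same 2 between 12 and 24 hours (0.91 and 0.62), where 12% and 10.4% of all genes were called higher. Under total-count scaling Emd stayed above 1.5-fold (0.78 and 0.69), and Tmpo did not (0.45 and 0.40). The lamins Lmna, Lmnb1 and Lmnb2 were not called.

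The size of these 24 hour values depended on the scaling. TMM factors were 1.04 to 1.07 in the 6 earlier libraries and 0.898 to 0.911 at 24 hours. Scaled by total counts alone, the median of all genes at 24 hours moved from -0.02 to -0.24, and 1 transport gene (Nup43) was called higher and 11 lower (1.82% and 20%), where 6.1% of all genes were called higher and 26.3% lower. The genes added on the lower side were Ipo4, Ipo8, Ipo13, Ranbp1, Nup214, Nupl2, Nup210 and Ranbp10 (-0.79 to -0.60). With offsets for transcript length and GC content, 9 were called higher and 3 lower (16.4% and 5.45%), against 13.1% of all genes in each direction. Kpnb1, Ipo5, Tnpo2, Nup160 and Nup50 were added on the higher side and Nup54 was lost. Of the 22 genes that were higher by the adjusted p alone, 14 kept it under total counts and 22 with the offsets. Of the 19 that were lower, 19 kept it under total counts and 11 with the offsets. The transport genes took between 0.596% and 0.612% of all counts at time 0, between 0.600% and 0.602% at 12 hours and between 0.611% and 0.627% at 24 hours, a measure that needs no factor. They have longer transcripts than the table as a whole (median 4764 against 2969 bases) and a lower GC content (47.2% against 50.4%). Over the 55 genes tested at 24 hours, the Spearman correlation of the log2 fold change with GC content was -0.43 and -0.28 after the offsets, where the genes share the same 6 libraries.

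**Figure D4:**
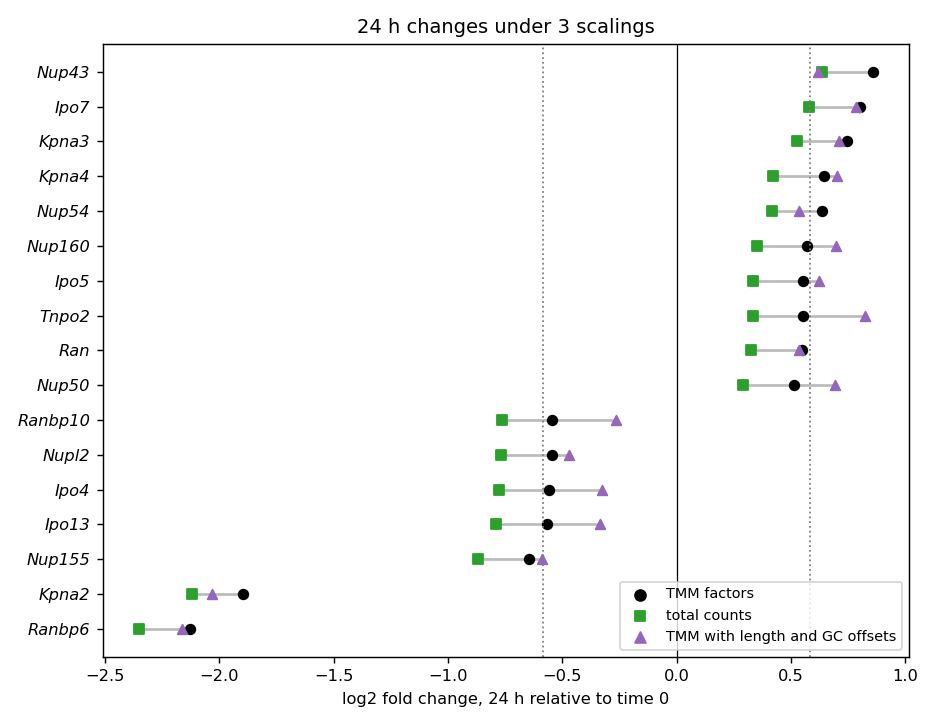
Log2 fold change at 24 hours relative to time 0 (x axis) of the 17 transport genes with an adjusted p of 0.05 or less and a log2 fold change of at least 0.5 in size, under TMM factors (circles), total counts (squares) and TMM with length and GC offsets (triangles). Kpna2, Ranbp6, Nup155 and Nup43 lie beyond 1.5-fold (dotted lines) under all 3, and total counts place every gene lower than TMM factors do.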

How the data were processed

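RNA-Seq was analyzed for 9 MyC-CaP libraries. The authors prepared TruSeq mRNA libraries, aligned paired-end reads to GRCm38 with STAR and used featureCounts for the genes. The deposited table holds raw counts without normalization. Strand and multi-mapping settings, and the selection of genes in the table, are not given in the sources used here. In R 4.3.3, each comparison was fitted on its own 6 libraries with edgeR 4.0.16 (filterByExpr, TMM factors, quasi-likelihood test, Benjamini-Hochberg adjustment over all genes tested). The calculations were tested on simulated data. Alternatives were DESeq2 1.42.0, RLE, upper-quartile and total-count scaling, a single fit of the 9 libraries, the replicate block, the adjusted p alone, no filter or a minimum of 10 counts per library, loess offsets for length and GC content (span 0.3), and leaving out each library. Positions, exon lengths and shared 100-base stretches come from GENCODE M21 in place of the authors' M24, and motifs were counted in the 250 bases before the start site, in the window lying farthest upstream of each gene. Protein sequences were not analysed here. Some markers of the epithelial list are not reported here.

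The transport genes and lists were chosen with earlier results of these data known. Values per library were given for Ran, Rangap1, Ranbp1, Kpna2, Kpnb1, Cse1l and Xpo1, for up to 3 called genes per role at 24 hours with a mean of at least 1 CPM, for the 2 with the largest change at 12 hours, and for related pairs and the importin alpha genes. Levels are mean ± SD over 3 libraries, fold changes ± SE. Same-time libraries differed beyond sampling noise (chi-square 3.48 to 18.2 per degree of freedom).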

Additional observations from a re-analysis of the deposited data

How the results depend on the processing

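Nup43, Nup155, Ranbp6 and Kpna2 were called at 24 hours against time 0 under all 16 alternatives. Kpna3, Kpna4 and Ipo7 lost their call only under total-count scaling, and Nup54 under total counts and under the length and GC offsets. Calls were gained under total counts by Ipo4, Ipo8, Ipo13, Ranbp1, Nup214, Nupl2, Nup210 and Ranbp10 (lower), and with the offsets by Kpnb1, Ipo5, Tnpo2, Nup160 and Nup50 (higher). Only 1 of the 56 transport genes had fewer than 10 counts in every library, so depth limits few of them. The same-numbered replicates had deviation correlations of -0.158 to 0.088, and the labels do not say whether they shared a plate or a day. With the replicate block, 5 transport genes were called higher and 3 lower at 24 hours against time 0, where 11.7% and 16.6% of all genes were. Against 12 hours 6 and 3 were called (10.4% and 15.3% of all genes), and at 12 hours 0 and 0 (1.44% and 0.0701%). The cause of the changes below was not tested.

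With the adjusted p alone, 1178 genes were called at 12 hours, 8119 at 24 hours and 8124 between them. The transport genes then gave 2 higher at 12 hours, 22 higher and 19 lower at 24 hours, and 23 and 18 between 12 and 24 hours, and the other transport genes gave 1, 14 and 13 in these comparisons.

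The median log2 fold change of the transport genes at 12 hours was -0.016 with upper-quartile factors, -0.022 with total counts, -0.028 with length and GC offsets and -0.027 with these and the replicate block. At 24 hours against time 0 it was 0.06 with DESeq2 and with RLE factors, 0.079 with upper-quartile factors, -0.175 with total counts and 0.137 with the offsets, with and without the block. Between 12 and 24 hours it was 0.08 with upper-quartile factors, -0.167 with total counts, 0.039 with all 9 libraries in one fit, 0.16 with the offsets and 0.161 with the offsets and the block.

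Upper-quartile factors gave 8 transport genes higher at 24 hours (14.5%, against 13.2% of all genes). Total counts gave 1 higher and 11 lower against time 0, where 6.1% and 26.3% of all genes were called, and 1 and 9 against 12 hours, where 4.25% and 24.8% were. The offsets gave 9 higher against time 0 (13.1% of all genes), with and without the block. Of the 18 other transport genes, 4 were called at 24 hours with upper-quartile factors (2 higher and 2 lower, where 13.2% and 15.7% of all genes were called), 4 with total counts (0 and 4) and 5 with the offsets with or without the block (3 and 2). Between 12 and 24 hours 4 were called with the offsets with or without the block (3 and 1, where 11.3% and 11.4% of all genes were called without it).

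Signs turned under total counts for 13 transport genes against time 0 and 11 against 12 hours, and with the offsets for 8 and 8. Those with an adjusted p of at most 0.05 before or after the change were, under total counts against time 0, Tnpo3 (-0.007), Nup153 (-0.157), Xpo4 (-0.077), Kpna1 (-0.081), Ranbp9 (-0.214), Nup205 (-0.023), Nup133 (-0.026), Ipo11 (-0.154), Nup107 (-0.175) and Nup98 (-0.204), and against 12 hours Tnpo3 (-0.037), Xpo4 (-0.061), Xpo7 (-0.186), Ranbp9 (-0.181), Nup133 (-0.036), Ipo11 (-0.071), Nup107 (-0.169) and Nup98 (-0.166). With the offsets, without and with the block, they were against time 0 Ranbp3 (0.029 and 0.028), Ipo9 (0.196 and 0.197), Nup188 (0.133 and 0.131), Xpo5 (0.042 in both) and Nup62 (0.037 and 0.036). Against 12 hours they were Ranbp3 (0.096 in both), Nup153 (0.063 in both), Nup210 (0.028 and 0.025), Ipo9 (0.19 in both), Nup188 (0.187 and 0.185) and Xpo5 (0.012 in both).

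Leaving out each library in turn, the transport genes called lower at 12 hours were 0 to 1, the 1 being Nupl1 without time 0 replicate 2. Of all genes, 0.0347% to 0.13% were called lower in these fits. The median of the transport genes at 12 hours was -0.01 to 0.007. At 24 hours against time 0, 5 to 7 were called higher (9.09% to 12.7%) and 3 to 5 lower (5.45% to 9.09%), with a median of 0.034 to 0.058. Of all genes, 11.6% to 12.5% were called higher and 15.9% to 16.8% lower in these fits. Of the other transport genes, 2 to 4 were called (4 without time 0 replicate 3). The 5 lower were reached without time 0 replicate 2 (Ipo13 and Nupl1 added) and without 24 h replicate 2 (Ipo13 and Ipo4 added). Between 12 and 24 hours, 4 to 7 transport genes were higher, the 4 without 24 h replicate 1 (Tnpo2 and Nup54 lost), where 10.1% to 10.5% of all genes were. Their median was 0.039 to 0.057.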
